A study of Mus musculus with 12 samples.

Results

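The 38 genes described here encode the proteins that bring glucose into the cell, break it down to pyruvate, exchange lactate, let pyruvate into the mitochondrion and lay down or release glycogen. They were taken by gene symbol from the 38293 genes counted in mouse heart RNA, and each symbol was matched to a single Ensembl gene. RNA-seq had been performed on 12 hearts of C57Bl/6J mice, 3 per group. The study's methods on the transgenic lines give the mice as male and 8 to 9 weeks old. A general passage of the methods names both male and female mice of that age. WT sham hearts came from wild-type mice with sham surgery and WT IR hearts from wild-type mice 14 days after ischaemia-reperfusion (IR) injury, in which the left anterior descending coronary artery was tied for 1 h and then released. The other 2 groups were also taken 14 days after IR. Zeb2 cTg IR hearts carried a Cre-inducible Zeb2 transgene in the R26 locus, switched on by a Cre driven by the Myh6 (αMHC) promoter, which is active in cardiomyocytes, and Zeb2 WT IR hearts came from their wild-type littermates. The labels name the left ventricle, the design text names infarct and border zone, and the methods name the remote zone, so the sampled region is not settled. The transcription factor gene Zeb2 stood at 54.7, 57.8 and 67.0 CPM (counts per 1e6 counts, TMM-normalized) in Zeb2 WT IR and at 55.5, 56.9 and 58.7 CPM in the hearts labelled Zeb2 cTg IR, which overlapped, so these hearts are referred to by their label only. By qPCR and immunofluorescence the study reported higher ZEB2 mRNA and protein in Zeb2 cTg mice than in their littermates. The study's other assays of the transgene were not used here.

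The heart normally draws most of its energy from fatty acids and uses glucose, lactate and ketones beside them. Glucose enters through the transporters GLUT1 and the insulin-responsive GLUT4, is trapped by hexokinase, and is committed to glycolysis by phosphofructokinase, which fructose 2,6-bisphosphate stimulates. Pyruvate is either reduced to lactate or carried into the mitochondrion, where the pyruvate dehydrogenase complex turns it into acetyl-CoA. Pyruvate dehydrogenase kinases switch that complex off, and HIF1α, the factor stabilised at low oxygen, is known to raise many glycolytic genes and Pdk1. Several steps exist as a form that prevails in striated muscle and a form that prevails elsewhere.

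Because low oxygen and HIF1α are central to the study, and ZEB2 is known to bind CACCTG, the stretches before the starts of the genes were searched for short motifs. RefSeq promoter sequences (GRCm38.p6) were matched for 36 of the 38 genes. The motifs were the hypoxia response core ACGTG or GCGTG, the E-box CANNTG and the ZEB element CACCTG, each read on both strands, in the 250 bases before the RefSeq start. CACCTG is itself an E-box, and CACGTG holds the hypoxia core on both strands and an E-box, so that these matches overlap. The hypoxia core was present in 28 of 36 windows (77.8%), against 42.1% of 20558 windows of all genes. The median GC content of these windows was 61.6%, against 54.0% over all genes, and its part in the difference was not tested. An E-box was found in 63.9% of the genes' windows and in 64.0% of all windows. CACCTG was found in 2 of the 36 windows (5.56%), those of Mpc2 and Pgam2, against 16.8% of all windows. Sequences of 6 genes whose expression passed the test in 1 of the comparisons are shown 5′ to 3′, with the hypoxia core in capitals, to let the genes that rose and those that fell be read side by side. Each ends at or before the start of the GENCODE gene model, so that no base of that model is included. Pdk3 (chrX:93832202-93832400, minus strand) and Pfkfb3 (chr2:11554078-11554179, minus strand) were higher in WT IR, Hk2 (chr6:82774455-82774704, minus strand) and Slc16a1 (chr3:104638414-104638663, plus strand) were lower in WT IR, and Eno1 (chr4:150236458-150236707, plus strand) and Tpi1 (chr6:124814297-124814408, minus strand) were higher in the hearts labelled Zeb2 cTg IR.
Pdk3: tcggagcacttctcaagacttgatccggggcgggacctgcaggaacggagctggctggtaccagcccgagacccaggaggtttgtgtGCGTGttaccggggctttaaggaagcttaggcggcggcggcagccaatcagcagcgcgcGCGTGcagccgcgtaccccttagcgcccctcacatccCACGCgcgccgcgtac
Pfkfb3: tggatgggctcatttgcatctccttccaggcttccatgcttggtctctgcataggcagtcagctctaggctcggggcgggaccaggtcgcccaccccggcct
Hk2: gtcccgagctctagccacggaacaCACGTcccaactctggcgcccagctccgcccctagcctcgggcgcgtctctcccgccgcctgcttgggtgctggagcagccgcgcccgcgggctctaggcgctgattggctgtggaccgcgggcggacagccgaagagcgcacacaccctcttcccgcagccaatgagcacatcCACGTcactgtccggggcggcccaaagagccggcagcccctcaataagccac
Slc16a1: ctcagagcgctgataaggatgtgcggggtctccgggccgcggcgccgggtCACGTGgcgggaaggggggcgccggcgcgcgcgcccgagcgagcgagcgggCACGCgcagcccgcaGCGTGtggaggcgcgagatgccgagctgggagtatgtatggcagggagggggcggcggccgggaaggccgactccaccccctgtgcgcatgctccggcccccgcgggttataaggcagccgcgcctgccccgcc
Eno1: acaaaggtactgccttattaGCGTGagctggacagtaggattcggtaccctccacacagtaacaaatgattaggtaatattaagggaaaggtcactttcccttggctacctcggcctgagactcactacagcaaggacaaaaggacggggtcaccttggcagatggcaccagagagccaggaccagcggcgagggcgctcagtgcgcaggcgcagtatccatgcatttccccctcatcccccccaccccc
Tpi1: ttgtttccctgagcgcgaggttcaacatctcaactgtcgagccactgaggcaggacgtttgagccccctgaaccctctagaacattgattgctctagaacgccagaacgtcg
In these stretches the core was matched 3 times for Pdk3, 2 times for Hk2, 4 times for Slc16a1, of which 2 are the strands of 1 CACGTG, and 1 time for Eno1. It was not matched in the shorter stretches of Pfkfb3 and Tpi1. The full 250-base window of Pfkfb3 held 1 match, outside the stretch shown, and that of Tpi1 held 0. Genes that rose and genes that fell thus both carried the core, and a match is a string of letters, not evidence of binding.

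Expression of the 38 genes spanned a wide range. Per kilobase of the principal transcript, mean levels in WT sham were highest for Aldoa (aldolase A, 381 ± 27.4 CPM per kb, n = 3), Eno3 (muscle enolase, 220.3 ± 7.31), Pdha1 (the E1α subunit of pyruvate dehydrogenase, 158 ± 2.32), Ldhb (the heart-type lactate dehydrogenase subunit, 150.5 ± 4.20), Pygm (muscle glycogen phosphorylase, 129.9 ± 5.01) and Pgam2 (muscle phosphoglycerate mutase, 124 ± 4.01). Errors are SD over the 3 hearts. Aldoa and Eno3 stood apart from their neighbours in this order by more than that spread, whereas the ranges of mean ± SD of Pygm and Pgam2 overlapped. Forms that prevail outside muscle were far lower in several steps. Slc2a1 (GLUT1) stood at 1.31 CPM per kb against 48.7 for Slc2a4 (GLUT4). Pgam1 stood at 0.786 against 124 for Pgam2, and Eno1 at 5.84 against 220.3 for Eno3, though counts of Pgam1 and Eno1 are uncertain for the reason given below. Pfkp at 5.20 and Pfkl at 9.61 stood against 91.2 for Pfkm. The gap was narrower for Hk1, at 13.7 against 24.8 for Hk2. At the low end stood Pdk3 (0.415 CPM per kb), Slc16a3 (0.143), which encodes the lactate exporter MCT4, and Aldoc (0.0152). Aldoc had at most a handful of reads per heart, fell under the filter on low counts and was not tested, which left 37 genes in each comparison.

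Between 20215781 and 36816818 counts were deposited per library, of which 60.6 to 73.5% fell on genes of the mitochondrial genome. Cardiomyocyte markers had the highest sums of the marker lists. The 20 markers summed to 59623 to 66244 CPM in WT sham and 47271 to 60197 CPM in WT IR, and 4 of 20 were lower in edgeR's test. Fibroblast markers summed to 539 to 948 CPM in WT sham and 1931 to 4813 CPM in WT IR, with 9 of 10 higher, and macrophage markers rose from 163 to 181 CPM to 236 to 442 CPM, with 8 of 10 higher. In the second comparison cardiomyocyte markers summed to 58658 to 62144 CPM in Zeb2 WT IR and 66538 to 70016 CPM in the hearts labelled Zeb2 cTg IR, with 2 of 20 higher. Fibroblast markers summed to 933 to 2071 CPM and 560 to 685 CPM, with 3 of 10 lower, and macrophage markers to 181 to 247 CPM and 189 to 222 CPM, with 1 of 10 higher. Endothelial markers summed to 324 to 502 CPM in all 12 hearts, with 1 of 9 lower in WT IR, smooth muscle markers to 52.1 to 135 CPM, with 1 higher and 2 lower of 6 in WT IR and 1 higher of 5 in the other comparison, and erythrocyte markers to 57.9 to 141 CPM, with 2 of 5 lower in WT IR. Neutrophil and T cell markers reached at most 2.27 CPM, with 1 of 6 at 0 in every library, and no marker of the other lists was at 0 throughout. In such bulk tissue fewer cells of a type and less RNA per cell cannot be told apart.

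Some levels differed widely between the 2 tables of counts. The WT IR and Zeb2 WT IR groups are both wild-type hearts 14 days after IR, and their mean levels, normalized within each table and not tested, lay between 0.35-fold and 1.73-fold of each other for 32 genes. Gapdh, by contrast, stood 33.9-fold higher in Zeb2 WT IR (122, 91.8 and 90.4 CPM) than in WT IR (2.62, 3.99 and 2.35 CPM). Pgk1 was 9.46-fold, Mpc1 6.25-fold and Pgam1 2.49-fold higher in Zeb2 WT IR, whereas Eno1 was level at 1.00-fold. These are the 5 genes for which over 30% of the 75-base windows of the principal transcript also occur in transcripts of other genes, 80.3% for Gapdh, 67.5% for Pgk1, 65.4% for Eno1, 40.6% for Pgam1 and 37.0% for Mpc1. For Mpc1, the 2 genes that share windows with it held 30.8 to 39.4 CPM in the WT sham and WT IR libraries and 2.51 to 9.64 CPM in the other 6, while Mpc1 itself held 5.11 to 9.89 CPM and 35.4 to 42.7 CPM. The 72 genes that share windows with Gapdh did not go the opposite way to it, at 18.2 to 22.3 CPM in all in the WT sham and WT IR libraries and 31.0 to 92.9 CPM in the other 6, and the 2 that share with Pgk1 were at 0 CPM in both tables. Slc16a3, with no shared window, was also among the genes that differed, at 0.35-fold. Counts of the 5 genes are treated as uncertain because of the shared sequence, and their part in any difference within a table was not tested.

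**Figure D1:**
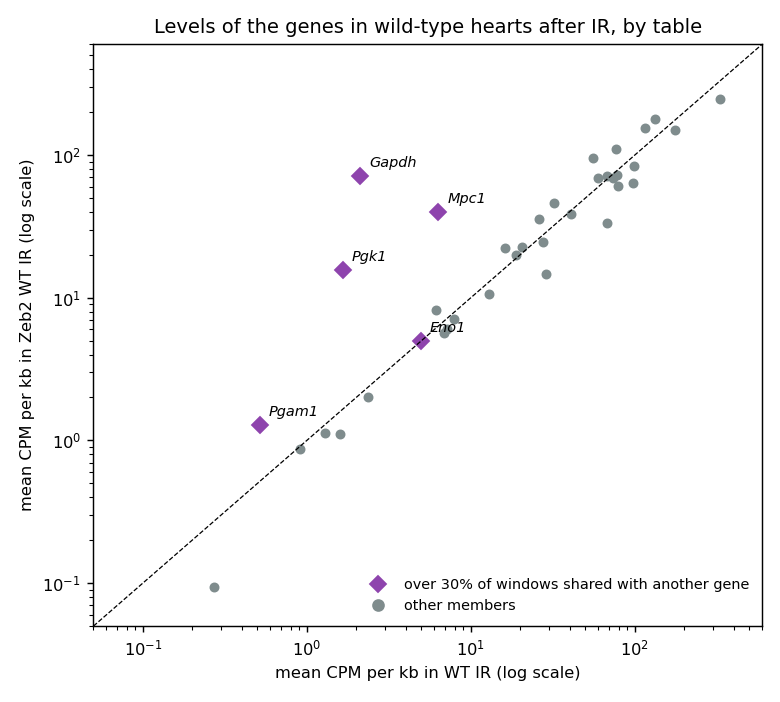
Mean CPM per kb of the 37 tested genes in WT IR (horizontal, log scale) and Zeb2 WT IR (vertical, log scale), with n = 3 hearts each and the dashed line marking equal levels. Diamonds are the 5 genes with over 30% of windows shared with another gene, of which Gapdh, Pgk1, Mpc1 and Pgam1 lie 2.49-fold to 33.9-fold above the line and Eno1 lies on it.

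Which of these genes change in the injured heart was asked by comparing WT IR with WT sham. On the TMM scale the mRNAs of the mitochondrial pyruvate carrier, the muscle forms of late glycolytic enzymes, heart-type lactate dehydrogenase, the lactate transporter MCT1 and glycogen synthase were among 11 that fell, while Pdk3 and Pfkfb3 rose. The smallest of these falls was that of Slc16a1, which fell by 20.0%, and the largest was that of Mpc1, which fell by 34.7%. In edgeR's quasi-likelihood test with Benjamini-Hochberg adjustment over 13756 genes, 2 of the 37 genes were higher and 11 were lower, against 11.0% of all genes higher and 9.74% lower. The log2 fold change was below 0 for 28 of 37 genes, with a median of -0.24, and the median over all genes was 0.01. Without overlap between the 3 sham and 3 IR hearts, 2 genes were higher and 16 were lower, against 20.5% and 19.3% of all genes. The 11 lower calls rest on the scaling. With size factors taken from the 20 cardiomyocyte markers, 0 of 37 were lower and 7 were higher (Ugp2, Pdk1, Pfkp, Pfkfb3, Slc2a1, Pdk3 and Ldha), against 2.45% and 20.1% of all genes, and 20 of 37 genes had a log2 fold change below 0. These factors moved the median of all genes to 0.25 and that of the 37 genes to 0.00. Leaving out WT sham replicate 2 or WT IR replicate 2 left 0 lower calls, and the share of all genes called in those fits was not taken. Leaving out WT IR replicate 1 gave 21 lower and 4 higher, against 17.6% and 18.4% of all genes in that fit. Beyond that rescaling, the part of the cardiomyocyte sums, which were lower in 2 of 3 IR hearts than in every sham heart, and of the higher fibroblast and macrophage sums in these counts was not tested.

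**Figure D2:**
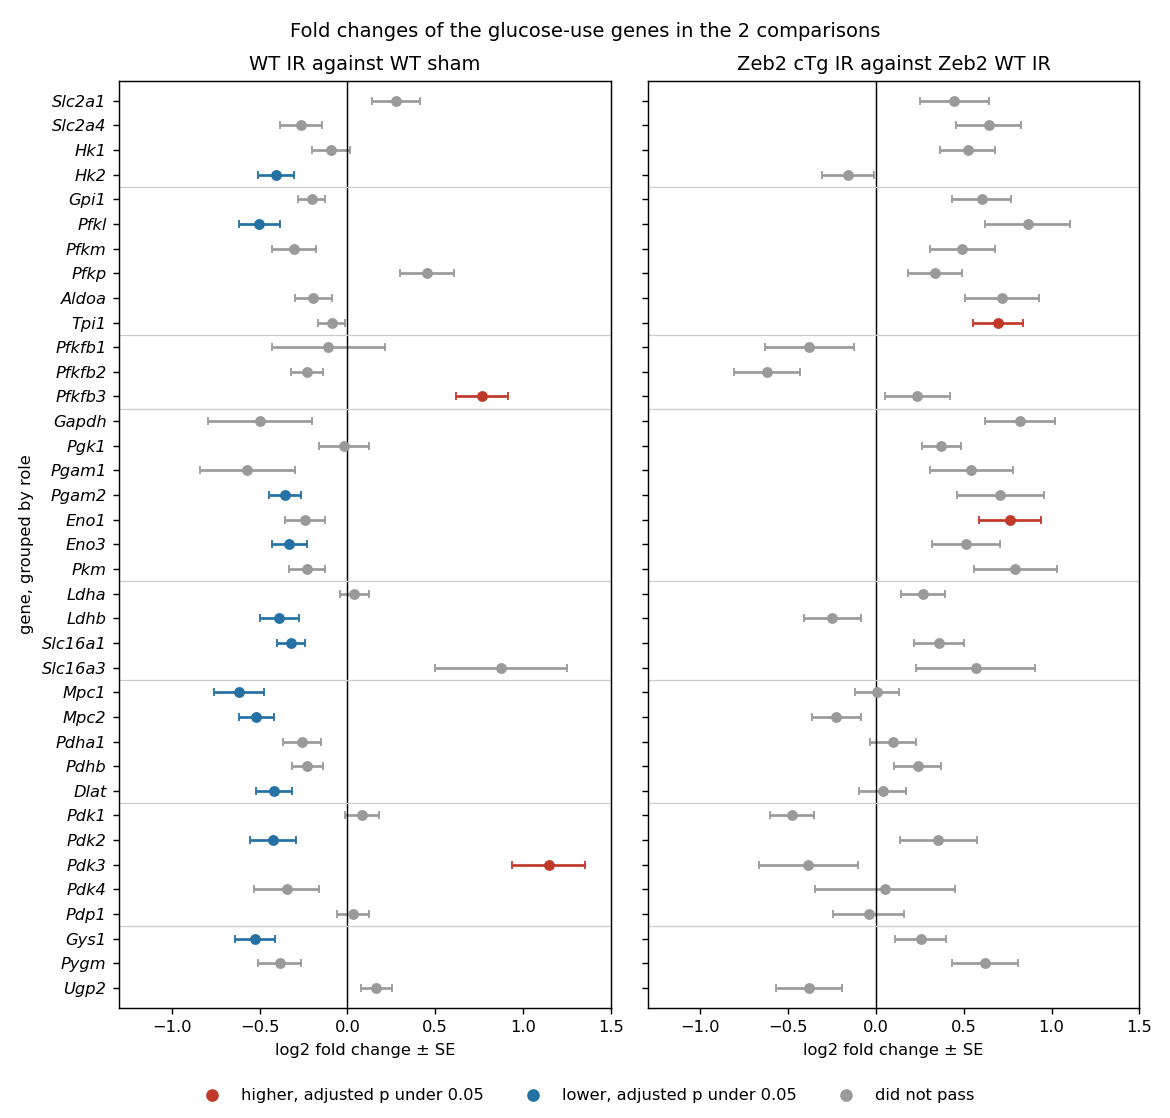
Log2 fold changes with their SE for the 37 tested genes, grouped by role, in WT IR against WT sham (left) and in the hearts labelled Zeb2 cTg IR against Zeb2 WT IR (right), 3 hearts per group. Red and blue mark genes that passed edgeR's test as higher (2 on the left, 2 on the right) and lower (11 on the left, 0 on the right), and 28 of 37 genes lie below 0 on the left and 28 of 37 above 0 on the right.

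Of the genes of glucose uptake and phosphorylation, 1 of 4 passed. Hk2, the insulin-sensitive hexokinase of muscle, stood at 149, 129 and 132 CPM in WT sham and at 116, 101 and 92.2 CPM in WT IR. All 3 IR hearts lay under all sham hearts (log2 fold change -0.41 ± 0.10, SE, adjusted p = 0.0249). Hk1, the more widely expressed hexokinase, measured 62.0, 50.0 and 46.1 CPM in WT sham and 52.2, 48.4 and 47.8 CPM in WT IR, and the groups overlapped (log2 fold change -0.09 ± 0.11, SE, adjusted p = 0.573). GLUT4 mRNA, Slc2a4, measured 129, 124 and 115 CPM and 122, 97.1 and 87.7 CPM, with the highest IR heart inside the sham range (log2 fold change -0.26 ± 0.12, SE, adjusted p = 0.146). GLUT1 mRNA, Slc2a1, was low throughout, at 4.99, 4.08 and 3.73 CPM in WT sham and 4.84, 5.18 and 5.59 CPM in WT IR. It overlapped and did not pass (log2 fold change 0.28 ± 0.14, SE, adjusted p = 0.173), whereas with the cardiomyocyte-marker size factors Slc2a1 was higher in WT IR (0.53, adjusted p = 0.0497).

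In upper glycolysis, 1 of 6 tested genes passed. Pfkl, the liver-type phosphofructokinase, fell from 38.8, 38.6 and 30.1 CPM in WT sham to 27.9, 22.6 and 25.8 CPM in WT IR with no overlap (log2 fold change -0.50 ± 0.12, SE, adjusted p = 0.0171). The muscle form Pfkm, by far the most abundant of the 3, measured 274, 266 and 247 CPM in sham hearts and 255, 201 and 182 CPM after IR. WT IR replicates 2 and 3 were lower than every sham heart but replicate 1 was not (log2 fold change -0.30 ± 0.13, SE, adjusted p = 0.114). Pfkp, the platelet form, went the other way at 25.9, 21.3 and 17.3 CPM and 24.7, 29.9 and 34.6 CPM, overlapping at the lowest IR heart (log2 fold change 0.45 ± 0.15, SE, adjusted p = 0.064). Gpi1, Aldoa and Tpi1, the isomerase, aldolase and triosephosphate isomerase steps, had log2 fold changes between -0.20 and -0.09, and none passed. Among the enzymes that make or break fructose 2,6-bisphosphate, Pfkfb3, the inducible form with the strongest kinase activity, rose from 3.71, 3.10 and 3.78 CPM in WT sham to 5.44, 5.45 and 7.05 CPM in WT IR. This was a 1.70-fold rise in which every IR heart exceeded every sham heart (log2 fold change 0.77 ± 0.15, SE, adjusted p = 0.00972). It passed in 5 of 6 fits that left out 1 heart, the exception being WT sham replicate 2 (adjusted p = 0.0653), and it also passed with the cardiomyocyte-marker size factors (1.01). Pfkfb2, the heart form, and Pfkfb1 were at -0.23 and -0.11 on the log2 scale and did not pass.

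The 7 genes of lower glycolysis all had negative log2 fold changes (5 of 7 with the cardiomyocyte-marker size factors, where Pgk1 and Pkm were at 0.23 and 0.00), and the muscle-specific forms passed on the TMM scale. Pgam2 was 107, 105 and 101 CPM in WT sham and 91.5, 77.9 and 75.7 CPM in WT IR, and fell (log2 fold change -0.35 ± 0.09, SE, adjusted p = 0.0247). Eno3 was 340.4, 357 and 336 CPM in WT sham and 307, 268 and 247 CPM in WT IR, and fell as well (log2 fold change -0.33 ± 0.10, SE, adjusted p = 0.047). In both genes the 2 groups did not overlap. Pkm, which encodes pyruvate kinase, measured 234, 230.2 and 206 CPM and 213, 182 and 176 CPM and overlapped at 1 IR heart (log2 fold change -0.23 ± 0.10, SE, adjusted p = 0.134). Gapdh, often used as a reference gene, was counted at only 2.46, 5.61 and 4.71 CPM and 2.62, 3.99 and 2.35 CPM in this table, between 63 and 183 reads per heart, with the limit on shared sequence given above (log2 fold change -0.50 ± 0.30, SE, adjusted p = 0.258). Pgk1, Pgam1 and Eno1 ranged from -0.57 to -0.02 and did not pass.

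Of the 4 genes of lactate handling, Ldhb and Slc16a1 fell on the TMM scale, and Ldha and Slc16a3 did not pass. Ldhb, whose subunit favours the conversion of lactate to pyruvate, measured 199.6, 189.9 and 199 CPM in WT sham and 172, 148 and 129 CPM in WT IR without overlap (log2 fold change -0.39 ± 0.11, SE, adjusted p = 0.0343). Slc16a1, the monocarboxylate transporter MCT1, measured 139, 152 and 141 CPM and 120.0, 115 and 111 CPM, again without overlap (log2 fold change -0.32 ± 0.08, SE, adjusted p = 0.0218). Ldha, the form induced in hypoxia, was at 121, 119.7 and 107 CPM in sham hearts and 125, 120.0 and 113 CPM in IR hearts, fully intermingled (log2 fold change 0.04 ± 0.08, SE, adjusted p = 0.766). With the cardiomyocyte-marker size factors Ldha was higher in WT IR (0.28, adjusted p = 0.0446), and Ldhb and Slc16a1 no longer passed (-0.16 and -0.09). Slc16a3 stood at only 0.757, 0.583 and 0.524 CPM and 0.656, 1.08 and 1.79 CPM, its counts ran from 9 to 48 reads, and it did not pass (log2 fold change 0.88 ± 0.37, SE, adjusted p = 0.124).

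The genes that let pyruvate into the mitochondrion and oxidise it all had log2 fold changes below 0, and 3 of 5 passed. With the cardiomyocyte-marker size factors they lay between -0.39 for Mpc1 and 0.00 for Pdhb, and none passed in edgeR's test. Mpc2, a subunit of the mitochondrial pyruvate carrier, measured 77.2, 78.4 and 88.3 CPM in WT sham and 64.1, 54.7 and 51.3 CPM in WT IR (log2 fold change -0.52 ± 0.10, SE, adjusted p = 0.00955). Its partner Mpc1, whose counts are uncertain, measured 9.27, 8.80 and 9.89 CPM and 7.44, 5.11 and 5.67 CPM (log2 fold change -0.62 ± 0.14, SE, adjusted p = 0.0174). Dlat, the E2 core of the pyruvate dehydrogenase complex, was tightly grouped at 173, 173 and 175 CPM in sham hearts and fell to 149, 126 and 114 CPM (log2 fold change -0.42 ± 0.10, SE, adjusted p = 0.0216). In all 3 genes every IR heart was lower than every sham heart. Pdha1 did not overlap either, at 451, 455 and 442 CPM and 426, 368 and 334 CPM, but it did not pass (log2 fold change -0.26 ± 0.11, SE, adjusted p = 0.117), nor did Pdhb (-0.23). Of 6 further genes of the complex and its cofactors that were tested, 2 were lower, Pdhx, which anchors E3 to the core (-0.38, adjusted p = 0.0168), and Dld, the E3 subunit (-0.32, adjusted p = 0.0339), and all 6 had negative log2 fold changes. Pdhx passed in 2 and Dld in 1 of 6 fits that left out 1 heart.

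The kinases that inhibit the complex diverged. Pdk3 rose from 0.908, 0.736 and 0.989 CPM in WT sham to 1.66, 1.96 and 2.13 CPM in WT IR, on 17 to 74 reads per heart. Its 2.21-fold rise was the largest of the 13 genes that passed (log2 fold change 1.15 ± 0.21, SE, adjusted p = 0.00817), and no IR heart reached down to the sham range. It passed in 5 of the 6 fits without 1 heart, the exception again being WT sham replicate 2 (adjusted p = 0.0590), and with the cardiomyocyte-marker size factors (1.39). Pdk2, which is abundant in heart, fell from 85.2, 87.4 and 86.4 CPM to 76.7, 65.6 and 50.8 CPM without overlap (log2 fold change -0.42 ± 0.13, SE, adjusted p = 0.0466). Pdk4, the kinase induced by fasting and fatty acids, was the most abundant of the 4 and the most variable, at 363, 317 and 212 CPM in sham hearts and 274, 225 and 203 CPM in IR hearts. Sham replicate 3 lay among the IR hearts, and Pdk4 did not pass (log2 fold change -0.35 ± 0.19, SE, adjusted p = 0.211). Pdk1 and the phosphatase Pdp1 had log2 fold changes of 0.08 and 0.03 and did not pass.

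Glycogen synthase was the member of the glycogen genes that passed. Gys1 measured 40.1, 44.7 and 40.2 CPM in WT sham and 34.5, 25.7 and 26.6 CPM in WT IR without overlap (log2 fold change -0.53 ± 0.11, SE, adjusted p = 0.0142). Pygm, which releases glucose units from glycogen, was just short of the threshold (-0.39, adjusted p = 0.053), and Ugp2, which makes UDP-glucose, was at 0.16. Among 22 further glycogen genes tested, 0 were higher and 4 were lower. These were Ppp1r3b and Ppp1r3d, which bring protein phosphatase to glycogen (-0.71 and -0.62), Gaa, the lysosomal glucosidase (-0.31), and Pgm1 (-0.33). In 6 fits that left out 1 heart, Ppp1r3b passed in 5, Ppp1r3d in 4, and Gaa and Pgm1 in 2 each.

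**Figure D3:**
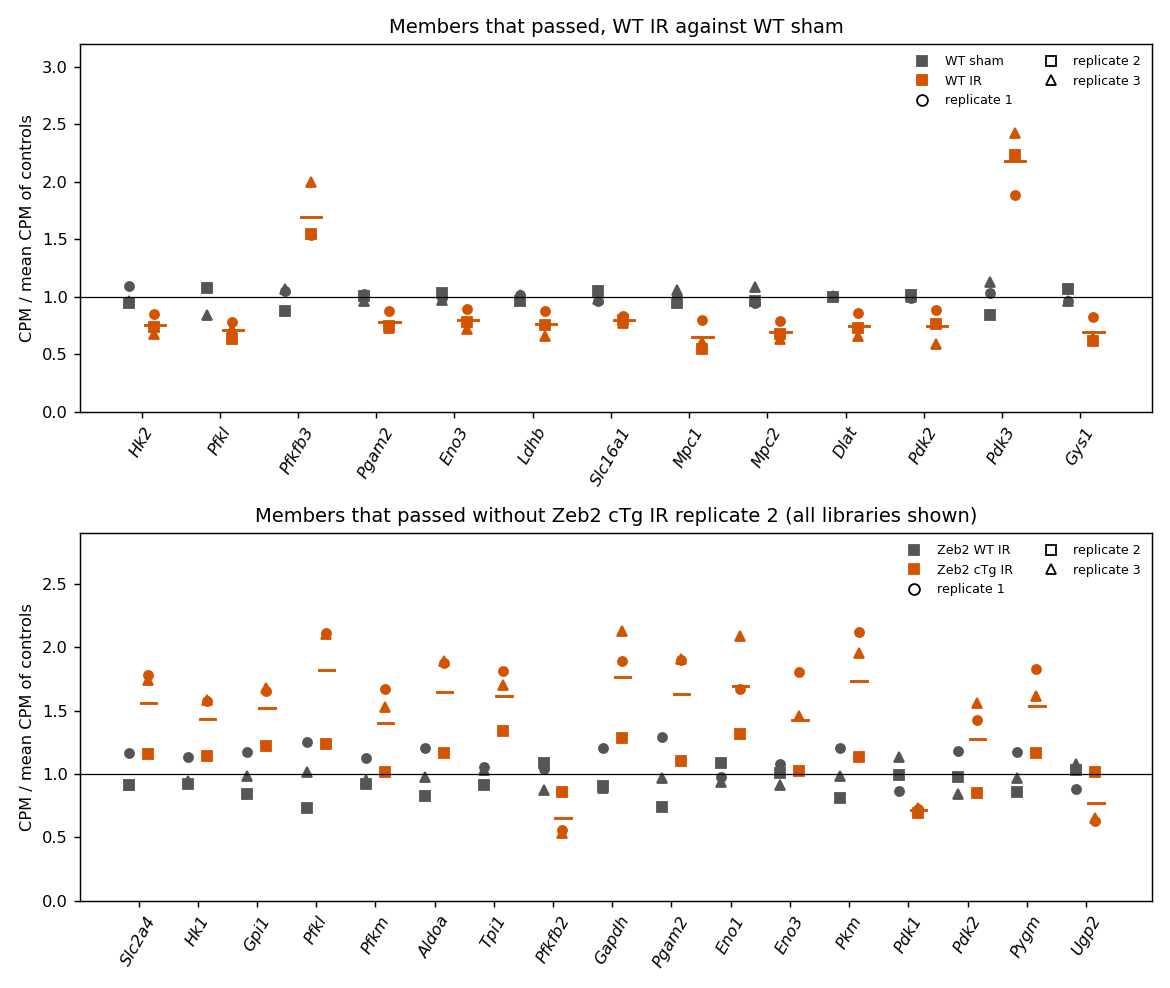
Level of each gene in each library (CPM divided by the mean CPM of the 3 control hearts; symbols mark replicates, short lines the mean of the treated hearts). Upper panel, the 13 genes that passed in WT IR against WT sham, with Pdk3 and Pfkfb3 above 1 and 11 genes below; lower panel, the 17 genes that passed when replicate 2 labelled Zeb2 cTg IR was left out, in which that library (square) lies nearer the control hearts than its 2 companions for most genes, as this choice of genes favours.

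Further genes of the pathway, from lists taken by symbol, moved in both directions after IR. All calls of further genes in WT IR against WT sham are on the TMM scale. On that scale 11.0% of all genes were higher and 9.74% lower. With the cardiomyocyte-marker size factors these shares were 20.1% and 2.45%, and calls of the further genes with those factors are not given here. Of 20 other transporters, glycolytic and lactate genes tested, 1 was higher and 5 were lower. Fbp2, the muscle fructose 1,6-bisphosphatase, was at -0.87 (adjusted p = 0.00611), Pgp, a phosphatase that clears by-products of glycolysis, at -1.19 (adjusted p = 0.00821), Ldhd, which oxidises D-lactate, at -0.49 (adjusted p = 0.00923), and Slc2a13, a myo-inositol transporter, at 1.72 (adjusted p = 0.0166). Of 13 genes of the pentose phosphate and hexosamine routes, 2 were higher and 1 was lower. G6pdx, which opens the pentose phosphate route, rose from 2.53, 2.79 and 1.98 CPM to 4.06, 4.63 and 5.18 CPM (0.89, adjusted p = 0.00796), Gfpt1, which opens the hexosamine route, rose by 0.29 on the log2 scale (adjusted p = 0.035), and Pgls, the next enzyme of the pentose phosphate route, was at -0.55 (adjusted p = 0.00919).

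Of 20 regulators of glucose use, 3 were higher and 7 were lower. Txnip, whose product restrains glucose uptake, rose from 219, 120.0 and 154 CPM in WT sham to 342, 380.4 and 325 CPM in WT IR (1.09, adjusted p = 0.00733). Esrra, a nuclear receptor that drives genes of oxidative metabolism, fell from 34.3, 33.5 and 26.8 CPM to 22.2, 15.1 and 16.6 CPM (-0.82, adjusted p = 0.00797). Neither gene overlapped between the groups. Myc was at 1.22 (adjusted p = 0.00934) and Hif1a at 0.51 (adjusted p = 0.0132), whereas the others that were lower were Irs1, Irs2, Ppara, Mlxipl, Egln3 and Egln1. In 6 fits that left out 1 heart, Egln1 passed in 1, Mlxipl and Egln3 in 2 each, and Irs1, Irs2 and Ppara in 3 each. Of 12 hypoxia-response genes outside the 38, Ndrg1 was higher (0.44, adjusted p = 0.0114), and Vegfa (-0.70, adjusted p = 0.0023) and Higd1a (-0.43, adjusted p = 0.0147) were lower, with a median of -0.11 over the list.

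Whether these genes differ in hearts with the Zeb2 transgene was asked by comparing the hearts labelled Zeb2 cTg IR with Zeb2 WT IR. In edgeR's test over 13018 genes, 2 of 37 genes were higher, Tpi1 and Eno1, and 0 were lower. Of all genes, 2.14% were higher and 1.51% lower. An unadjusted p under 0.05 was found for 19 of 37, and the share of all genes under that level was not taken. The log2 fold change was above 0 for 28 of 37 genes, with a median of 0.35, against 0.01 over all genes. The groups did not overlap in 11 genes that were higher and 2 that were lower, against 13.4% and 12.8% of all genes. The count turned on replicate 2 labelled Zeb2 cTg IR. Without this heart 14 genes were higher and 3 lower, which makes 17 of 37 in either direction, against 18.2% of all genes tested. Leaving out any other library gave 0 of either kind. The share of all genes called in those fits was not taken, so these counts of 0 cannot be set against it. With the cardiomyocyte-marker size factors 0 genes were higher and 1, Pdk1, was lower, against 1.43% and 4.81% of all genes, and the median of the 37 genes was 0.12 against -0.22 over all genes. A correction for transcript GC content gave 7 higher and 0 lower genes, against 3.66% and 2.76% of all genes, and DESeq2 gave 11 higher and 2 lower, against 5.16% and 3.27%. The part of the higher cardiomyocyte and lower fibroblast sums was not tested beyond the rescaling.

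All 13 tested genes of upper and lower glycolysis had log2 fold changes above 0, and all 13 were also above 0 with the cardiomyocyte-marker size factors, from 0.12 for Pfkp to 0.63 for Pfkl. Tpi1, the triosephosphate isomerase, stood at 104, 89.6 and 101 CPM in Zeb2 WT IR and 177, 131 and 167 CPM in the hearts labelled Zeb2 cTg IR. It rose 1.62-fold with no overlap (log2 fold change 0.69 ± 0.14, SE, adjusted p = 0.0317), at 0.46 with the cardiomyocyte-marker size factors. Eno1, the widely expressed enolase, stood at 9.76, 10.9 and 9.40 CPM and 16.8, 13.2 and 20.9 CPM and rose 1.70-fold (log2 fold change 0.76 ± 0.18, SE, adjusted p = 0.049), although its counts are among those with shared sequence. Gapdh measured 122, 91.8 and 90.4 CPM in Zeb2 WT IR and 192, 130.3 and 215 CPM in the hearts labelled Zeb2 cTg IR, did not overlap and came close to the threshold (log2 fold change 0.82 ± 0.20, SE, adjusted p = 0.0546). Pgk1 did not overlap either (0.37, adjusted p = 0.0923).

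In several genes replicate 2 lay among the controls. Pfkm was 226, 184 and 191 CPM in Zeb2 WT IR and 334, 203 and 307 CPM in replicates 1 to 3 labelled Zeb2 cTg IR (log2 fold change 0.49 ± 0.19, SE, adjusted p = 0.154). Eno3 was 252, 236 and 214 CPM and 422, 239 and 340.5 CPM (log2 fold change 0.51 ± 0.19, SE, adjusted p = 0.152). Pkm was 213, 143 and 174 CPM and 373, 199.7 and 344 CPM (log2 fold change 0.79 ± 0.24, SE, adjusted p = 0.0891). In each of the 3 genes replicates 1 and 3 exceeded all controls and replicate 2 lay within the control range. The same held for Pfkl, at 26.5, 15.5 and 21.4 CPM and 44.7, 26.2 and 44.5 CPM (log2 fold change 0.86 ± 0.24, SE, adjusted p = 0.0777), and for Pgam2, at 69.4, 39.5 and 51.9 CPM and 102, 58.9 and 102 CPM (log2 fold change 0.71 ± 0.25, SE, adjusted p = 0.13). Pfkp, in contrast, was higher in every library labelled Zeb2 cTg IR, at 25.7, 20.1 and 29.8 CPM and 31.3, 33.6 and 30.5 CPM, without passing (log2 fold change 0.34 ± 0.15, SE, adjusted p = 0.216). Gpi1, Aldoa and Pgam1 had log2 fold changes of 0.60, 0.72 and 0.54 and did not pass.

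In the marker sums of its group replicate 2 lay between replicates 1 and 3 for cardiomyocytes, at 68562 CPM, and fibroblasts, at 590 CPM. It had the lowest sums of the 3 for endothelial (324 CPM), smooth muscle (80.8 CPM) and erythrocyte markers (57.9 CPM) and the highest for macrophage markers (222 CPM). Its share of mitochondrial-genome counts was 70.6%, against 67.1% and 60.6% in replicates 1 and 3. Zeb2 WT IR replicate 2 had 73.5%, the highest share of all libraries. Within this comparison these 2 libraries were each nearest to the other in chi-square distance of raw counts, at 26.9 per gene. The part of these sums, shares and distances in the result was not tested. Without replicate 2, Tpi1, Eno1, Gapdh, Pkm, Slc2a4, Pfkl, Aldoa, Hk1, Pfkm, Pygm, Gpi1, Eno3, Pgam2 and Pdk2 were called higher, and Pfkfb2, Ugp2 and Pdk1 lower.

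For glucose uptake, Slc2a4 measured 114, 89.3 and 89.4 CPM in Zeb2 WT IR and 174, 113 and 169.8 CPM in the hearts labelled Zeb2 cTg IR. Replicate 2 again lay within the control range, and the gene did not pass (log2 fold change 0.64 ± 0.18, SE, adjusted p = 0.0818). Slc2a1 measured 3.92, 3.64 and 3.27 CPM and 4.82, 3.93 and 5.95 CPM with no overlap, though narrowly (log2 fold change 0.45 ± 0.20, SE, adjusted p = 0.204). Hk1 measured 46.2, 37.5 and 38.7 CPM and 64.3, 46.7 and 64.8 CPM, also narrowly without overlap (log2 fold change 0.52 ± 0.16, SE, adjusted p = 0.0914). Hk2 did not follow it, at 127, 110.2 and 90.6 CPM and 101, 87.0 and 105 CPM, with the groups intermingled (log2 fold change -0.16 ± 0.15, SE, adjusted p = 0.528).

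For lactate, Ldha was 129, 121 and 129 CPM in Zeb2 WT IR and 174, 139.7 and 142 CPM in the hearts labelled Zeb2 cTg IR, all above the controls (log2 fold change 0.27 ± 0.13, SE, adjusted p = 0.227). Ldhb was 215, 209.9 and 177 CPM and 193, 132 and 181 CPM and overlapped (log2 fold change -0.25 ± 0.16, SE, adjusted p = 0.362). Neither passed. Slc16a1, at 149, 177 and 150.4 CPM and 186, 241 and 184 CPM, was highest in replicate 2 (log2 fold change 0.36 ± 0.14, SE, adjusted p = 0.174), and Slc16a3, with 7 to 20 reads per heart, was at 0.403, 0.283 and 0.533 CPM and 0.671, 0.611 and 0.562 CPM (log2 fold change 0.57 ± 0.34, SE, adjusted p = 0.331).

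No gene of pyruvate entry and oxidation passed in edgeR's test, and 0 of 5 had an unadjusted p under 0.05. Pdha1 measured 464, 578 and 479 CPM in Zeb2 WT IR and 534, 585 and 508 CPM in the hearts labelled Zeb2 cTg IR (log2 fold change 0.10 ± 0.13, SE, adjusted p = 0.676). Mpc1 measured 35.4, 42.7 and 35.7 CPM and 40.3, 38.3 and 35.7 CPM (log2 fold change 0.01 ± 0.12, SE, adjusted p = 0.983). Mpc2 measured 85.9, 113 and 95.5 CPM and 82.3, 93.2 and 76.2 CPM (log2 fold change -0.23 ± 0.14, SE, adjusted p = 0.341). The groups overlapped in all 3 genes, as they did in Pdhb and Dlat (0.24 and 0.04). Of the 6 further genes of the complex, 0 passed in edgeR's test in either direction, and 0 had an unadjusted p under 0.05.

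Among the kinases, Pdk1 was 101, 116 and 132 CPM in Zeb2 WT IR and 84.2, 80.9 and 85.1 CPM in the hearts labelled Zeb2 cTg IR. All 3 of the latter, which lay close together, were under all controls, and the gene did not pass (log2 fold change -0.48 ± 0.13, SE, adjusted p = 0.069), though it did with the cardiomyocyte-marker size factors (-0.71, adjusted p = 0.0335). Pdk4 varied more within the groups than between them, at 65.7, 83.0 and 200.3 CPM and 175, 93.2 and 93.4 CPM (log2 fold change 0.05 ± 0.40, SE, adjusted p = 0.955). Pdk3 was 1.36, 2.06 and 2.10 CPM and 1.26, 1.83 and 1.15 CPM (log2 fold change -0.39 ± 0.28, SE, adjusted p = 0.416) and Pdk2 was 39.0, 32.2 and 28.0 CPM and 47.2, 28.1 and 51.5 CPM (log2 fold change 0.35 ± 0.22, SE, adjusted p = 0.345). Both overlapped between the groups. Pfkfb2, whose product raises fructose 2,6-bisphosphate in heart when phosphorylated, was 104, 109 and 87.5 CPM and 56.0, 85.4 and 53.4 CPM, without overlap and without passing (log2 fold change -0.62 ± 0.19, SE, adjusted p = 0.0925). Pfkfb3, at 6.20, 5.26 and 4.33 CPM and 5.87, 5.53 and 7.13 CPM, overlapped (log2 fold change 0.24 ± 0.18, SE, adjusted p = 0.451). Pdp1 and Pfkfb1 were at -0.04 and -0.38 and did not pass.

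Glycogen genes outside the 38 passed as higher in the hearts labelled Zeb2 cTg IR, while the 3 within did not pass. Gys1 measured 28.0, 23.9 and 26.5 CPM and 36.3, 26.0 and 31.2 CPM and overlapped (log2 fold change 0.25 ± 0.15, SE, adjusted p = 0.313), and Pygm and Ugp2 were at 0.62 and -0.38 without passing. Of 22 further glycogen genes, 4 were higher and 0 lower, against 2.14% and 1.51% of all genes. Pgm5, a phosphoglucomutase relative of muscle adhesion sites, rose from 70.6, 58.1 and 62.7 CPM to 139.6, 156 and 126 CPM (1.14, adjusted p = 0.00325). Phkg1 and Phka2, subunits of the kinase that activates glycogen phosphorylase, rose by 1.36 and 0.64 on the log2 scale (adjusted p = 0.00827 and 0.0249), and Gyg, which primes glycogen, by 0.85 (adjusted p = 0.0399). Pgm5 and Phkg1 passed in 6 of 6 fits that left out 1 heart, whereas Phka2 and Gyg passed in 1 of 6.

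Among the other transporters, glycolytic and lactate genes in that comparison, Slc16a7, the monocarboxylate transporter MCT2, rose from 5.24, 6.68 and 4.26 CPM in Zeb2 WT IR to 12.4, 14.5 and 14.2 CPM in the hearts labelled Zeb2 cTg IR (1.35, adjusted p = 0.0072). Replicate 2 was as high as its companions in this gene. Of 20 regulators, 0 were higher and Irs1, an adaptor of the insulin receptor, was lower (-0.84, adjusted p = 0.0138). None of 13 pentose phosphate and hexosamine genes and none of 12 hypoxia-response genes passed in edgeR's test, with 3 and 0 at an unadjusted p under 0.05.

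**Figure D4:**
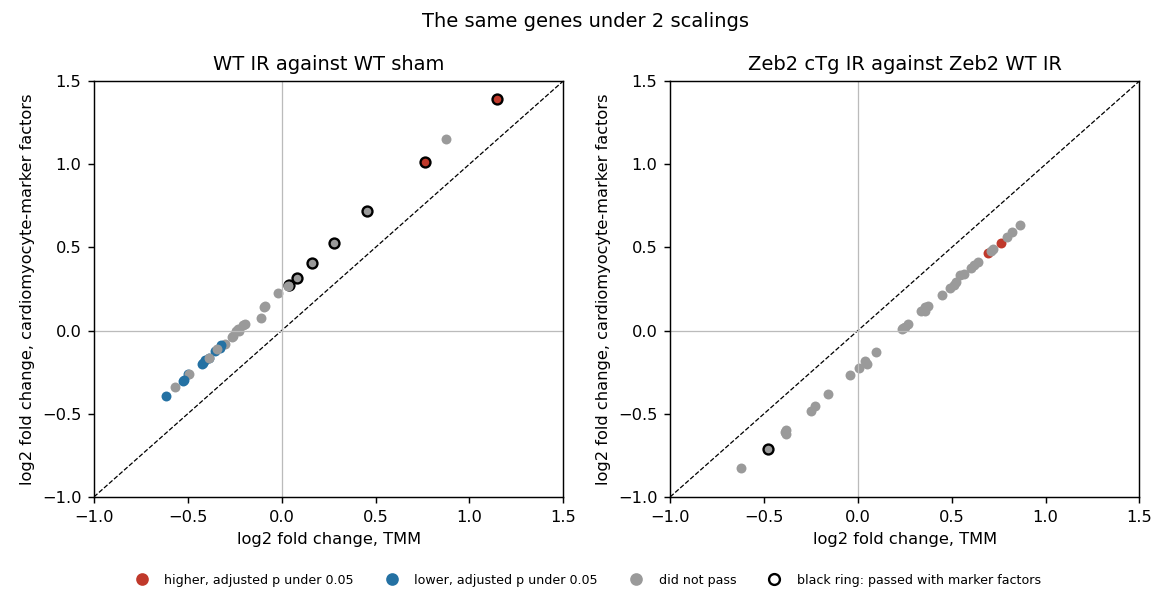
Log2 fold changes of the 37 genes with TMM size factors (horizontal) and with size factors from 20 cardiomyocyte markers (vertical), where the dashed line marks equality. Points lie above the line in WT IR against WT sham, where 7 genes passed as higher and 0 as lower with the marker factors (black rings), and below it in the hearts labelled Zeb2 cTg IR against Zeb2 WT IR, where Pdk1 alone passed.

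Ratios between forms of the same step were taken within each library, since they do not depend on the size factors. With 3 hearts against 3, the exact two-sided permutation test cannot give a p under 0.1, and the 11 ratios of each comparison were adjusted together. Of these, 5 were higher in WT IR without overlap, each with an exact p of 0.1 and an adjusted p of 0.22, and the other 6 overlapped. Ldha over Ldhb stood at 0.606, 0.630 and 0.538 in WT sham and 0.722, 0.809 and 0.876 in WT IR, a difference of 0.44 on the log2 scale. Hk1 over Hk2 stood at 0.416, 0.386 and 0.349 and 0.448, 0.478 and 0.518 (0.33). On the TMM scale Ldhb and Hk2 fell and Ldha and Hk1 did not pass, whereas with the cardiomyocyte-marker size factors Ldha was higher and Ldhb, Hk1 and Hk2 did not pass. Pfkp over Pfkm stood at 0.0946, 0.0802 and 0.0702 and 0.0968, 0.148 and 0.191 (0.79), and Slc2a1 over Slc2a4 at 0.0388, 0.0330 and 0.0326 and 0.0398, 0.0535 and 0.0640 (0.57). Slc16a3 over Slc16a1 was also higher (1.11), on 9 reads at the lowest. In the Pfkp, Slc2a1 and Slc16a3 ratios WT IR replicate 1 lay just above the sham hearts, and this heart also had the lowest fibroblast sum of the group, 1931 CPM, against 3108 and 4813 CPM in replicates 2 and 3. The part of other cells in these ratios was not tested.

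Between the hearts labelled Zeb2 cTg IR and Zeb2 WT IR, 3 of the 11 ratios did not overlap, all higher, each with an exact p of 0.1 and an adjusted p of 0.367. Hk1 over Hk2 stood at 0.365, 0.341 and 0.427 in Zeb2 WT IR and 0.635, 0.537 and 0.618 in the hearts labelled Zeb2 cTg IR (0.66 on the log2 scale). Ldha over Ldhb stood at 0.598, 0.577 and 0.729 and 0.902, 1.06 and 0.784 (0.53). Pfkl over Pfkm stood at 0.117, 0.0845 and 0.112 and 0.134, 0.129 and 0.145 (0.39). Replicate 2 had the highest Ldha over Ldhb and the lowest Hk1 over Hk2 of its group. Fibroblast sums were lower in the hearts labelled Zeb2 cTg IR, and their part in these ratios was not tested. The ratios of Pfkp over Pfkm and of Slc2a1 over Slc2a4 overlapped here (-0.11 and -0.20), and no test compared the 2 differences.

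**Figure D5:**
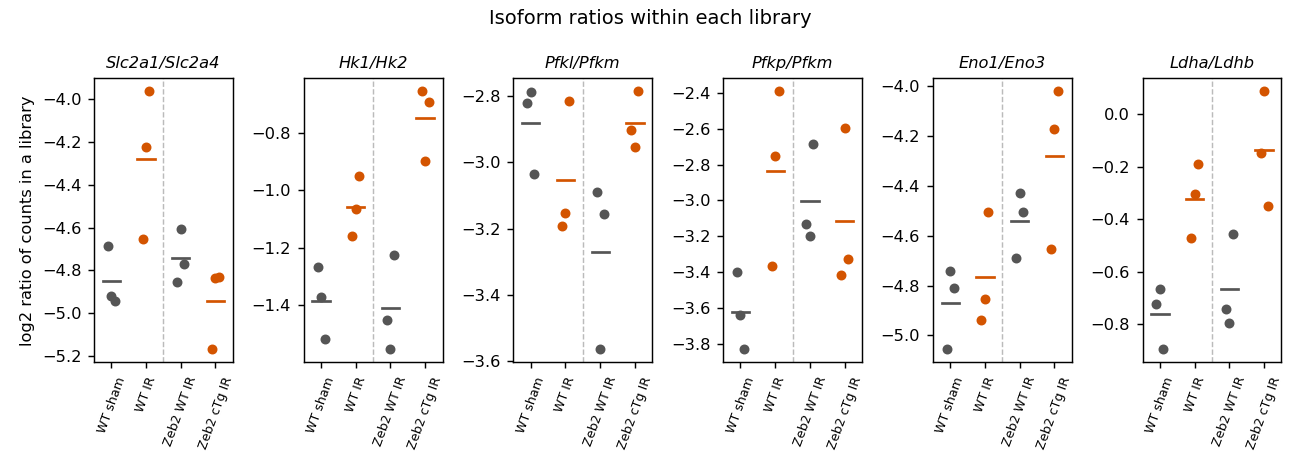
Log2 ratio of the counts of 2 forms of a step within each library, with points for hearts and lines for group means; the dashed line separates the 2 tables of counts, and the vertical axes differ between panels. Hk1 over Hk2 and Ldha over Ldhb lie above their controls in all 3 hearts of WT IR and in all 3 hearts labelled Zeb2 cTg IR, while Slc2a1 over Slc2a4 and Pfkp over Pfkm do so in WT IR and overlap in the other comparison.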

How the data were processed

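RNA was sequenced from 12 hearts, 3 per group, each a separate animal. The authors aligned single-end reads to mm10 with STAR 2.4.2a and counted them with HTSeq 0.6.1 (versions from the submitters' processing notes), and deposited whole-number counts per gene, not normalized, in 2 tables of 6 libraries. Kit and heart region are given differently in the methods and the labels. Groups came from the labels. Each table was fitted alone in R 4.3.3 with edgeR 4.0.16 (TMM, filterByExpr with a minimum count of 10 and a minimum total of 15, quasi-likelihood test, Benjamini-Hochberg adjustment over all genes tested, threshold 0.05). CPM are TMM-normalized. At 17.2 to 37.8 counts per CPM, genes under about 1 CPM rest on few reads. No 2 libraries agreed within sampling noise. The marker size factors are the median ratio over 20 cardiomyocyte markers. Positions, lengths, GC content and shared windows came from GENCODE M21 (GRCm38), and promoters from RefSeq. Alternatives used DESeq2 1.42.0, limma 3.58.1, other size factors, filters, a GC correction, a replicate block and leaving out each library. The fits were tested on counts simulated from the real means with known changes. In WT IR against WT sham 45.1% of 1.5-fold and 78.5% of 2-fold changes were recovered. In the other comparison the shares were 12.8% and 56.1%, so a gene that did not pass may still differ. Of the calls, 7.39% and 7.75% were genes simulated without change. Only a small part of the genes was changed and each gene was drawn on its own. Deviations that many genes of a library share were thus absent, and these shares need not hold for the real counts. Full values are given for genes that passed in either comparison and for 14 isoforms and enzymes set by symbol, and up to 4 passing genes per further list by smallest p. Outside that rule, full values are also given for Pdk1 and Pfkfb2 in the hearts labelled Zeb2 cTg IR against Zeb2 WT IR. Both were lower there without overlap and did not pass. The 38 genes, the further lists and the markers were chosen with earlier results of these data known. The grouping of the 38 genes by role, the summed levels of genes with shared windows and the ending of printed promoters at or before the gene model were added after seeing the data. Some genes of the further lists, and the count of calls that rests on them, are not reported here.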

Additional observations from a re-analysis of the deposited data

How the results depend on the processing

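With 3 hearts per group and 37 genes, counts of calls moved more than log2 fold changes. In WT IR against WT sham the number of higher genes was 2, and was 7 with the cardiomyocyte-marker size factors, 4 at an unadjusted p under 0.05, and 0 to 4 when 1 library was left out. The number of lower genes was 11, and was 0 with the marker size factors, 4 with all 12 libraries in 1 fit, 1 at an adjusted p under 0.01, 18 at an unadjusted p under 0.05, and 0 to 21 when 1 library was left out (0 without WT sham replicate 2 or WT IR replicate 2, 21 without WT IR replicate 1). The median log2 fold change of -0.24 became -0.00016 with the marker size factors. In the hearts labelled Zeb2 cTg IR against Zeb2 WT IR the number of higher genes was 2. It was 0 with the marker size factors or at an adjusted p under 0.01, 1 with at least 10 counts in every library or with limma-voom, 6 with the GC correction and a replicate block, 7 with the GC correction, 11 with DESeq2 or at an adjusted p under 0.1, 12 with all 12 libraries, 13 with no filter, 17 at an unadjusted p under 0.05, and 0 to 14 when 1 library was left out (14 without replicate 2 labelled Zeb2 cTg IR). The number of lower genes was 0. It was 1 with the marker size factors, 2 with no filter, DESeq2, all 12 libraries, an adjusted p under 0.1 or an unadjusted p under 0.05, and 0 to 3 when 1 library was left out. The median of 0.35 became 0.12 with the marker size factors, 0.23 with the GC correction and 0.23 with that and the block. A replicate block, the number in the labels as a term, gave 14 higher and 2 lower genes in that comparison, and 2 and 11 in WT IR against WT sham. The share of all genes called was taken only for the fits where it is printed in the Results. For the other settings and thresholds it was not taken, so those counts cannot be read as particular to these genes. Deviations of same-numbered libraries correlated at -0.034, 0.012 and -0.015 in the first comparison and 0.134, 0.260 and -0.043 in the second. Not every library correlated best with its own number. With 3 hearts per group these correlations cannot settle whether the numbers pair the hearts. No gene that passed as reported or under an alternative had the opposite sign in the other of these 2 fits. The causes of these shifts were not tested beyond what the settings themselves change. Genes with few reads (Aldoc, Slc16a3, Pdk3) are limited by depth.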
